A study of Danio rerio with 12 samples.

Results

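The 3 genes described here are cyp19a1a, foxl2a and foxl2b (ENSDARG00000041348, ENSDARG00000042180 and ENSDARG00000068417), taken by their Ensembl identifiers from 32520 genes listed. They were followed through single gonads of juvenile zebrafish in 3 ovaries at 30 days post fertilization (dpf), 2 ovaries at 25 dpf, 3 testes at 30 dpf and 4 testes at 25 dpf. Every fish, of either sex, was of strain AB and carried Tg(piwil1-egfp-nos3UTR)ihb327Tg, a germ cell reporter, so no gonad without the transgene was set beside these. Each replicate was 1 gonad, sexed under the microscope at dissection, with no statement that the gonads came from separate fish, and its polyadenylated RNA was sequenced after amplification of the cDNA.

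Aromatase, the product of cyp19a1a, converts androgens to oestrogens in the somatic cells around the oocytes. Foxl2 proteins are forkhead transcription factors of ovarian supporting cells, known in vertebrates for activating the aromatase gene and for keeping the supporting cells of the ovary from taking on a testicular identity. Zebrafish carry 2 copies, foxl2a and foxl2b, and loss of both is known to turn ovaries to testes. Zebrafish first form an ovary-like juvenile gonad, and in future males this gonad then turns into a testis, so that ages near 25 and 30 dpf fall within or close to this transition.

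Between 4471588 and 5331223 reads per gonad were counted on genes, and 22117 to 23829 genes had at least 1 count in a gonad. Levels are given as CPM, the usual unit of counts relative to library size, here after scaling by the trimmed mean of M-values (TMM), and 3 counts corresponded to 0.528 to 0.807 CPM. This floor covers counting error only. All 11 matched oocyte genes were higher in ovaries, with every ovary above every testis (12.2% of all genes tested showed this), and their median log2 fold change was 3.81, against -0.13 over all 19292 genes tested. The summed level of these oocyte genes was 8136 to 13889 CPM in 30 dpf ovaries, 4932 to 6739 CPM in 25 dpf ovaries, 271 to 980 CPM in 30 dpf testes and 218 to 1354 CPM in 25 dpf testes, so the labelled sexes did not overlap for these genes.

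The aromatase gene did not separate the sexes. Counts of cyp19a1a were 31, 41 and 215 in 30 dpf ovaries (replicates 1 to 3) and 88 and 166 in 25 dpf ovaries, against 150, 12 and 5 in 30 dpf testes and 92, 73, 187 and 209 in 25 dpf testes. Scaled for depth, its level was 8.33, 10.7 and 49.8 CPM in 30 dpf ovaries and 17.4 and 33.9 CPM in 25 dpf ovaries. In testes it was 30.1, 2.47 and 1.01 CPM at 30 dpf and 20.0, 12.8, 35.4 and 37.5 CPM at 25 dpf. Of the 7 testes, 5 lay inside the range of the 5 ovaries and 2 lay below it, those being replicates 2 and 3 at 30 dpf. The ovaries averaged 24.0 ± 17.5 CPM (SD, n = 5) and the testes 19.9 ± 15.1 CPM (SD, n = 7).

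The first foxl2 copy split the ovaries into very low and high samples. Counts of foxl2a were 2, 1 and 301 in 30 dpf ovaries and 179 and 1 in 25 dpf ovaries, against 312, 11 and 11 in 30 dpf testes and 278, 653, 253 and 369 in 25 dpf testes. Thus 3 of 5 ovaries were at or under 3 counts, where depth does not allow a level to be set, while the remaining ovaries had 69.7 CPM (30 dpf, replicate 3) and 35.4 CPM (25 dpf, replicate 1). In testes foxl2a was at 62.6, 2.27 and 2.22 CPM at 30 dpf and at 60.4, 114.9, 47.9 and 66.2 CPM at 25 dpf. The range of the ovaries held 6 of the 7 testes, and 25 dpf testis replicate 2 lay above it.

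The second copy was present in every gonad. Counts of foxl2b were 228, 262 and 186 in 30 dpf ovaries and 68 and 407 in 25 dpf ovaries, against 196, 43 and 32 in 30 dpf testes and 442, 694, 134 and 516 in 25 dpf testes. This corresponds to 61.3, 68.6 and 43.1 CPM in 30 dpf ovaries, 13.4 and 83.0 CPM in 25 dpf ovaries, 39.4, 8.86 and 6.46 CPM in 30 dpf testes, and 95.98, 122.1, 25.3 and 92.6 CPM in 25 dpf testes. Only 2 of 7 testes lay inside the range of the ovaries, with 3 testes above it and 2 below it. At 30 dpf, the age at which the sexes did not overlap for this gene, the 3 ovaries all exceeded the 3 testes, as they did for 25.1% of all genes tested, and at 25 dpf the values were interleaved. The 3 ovaries with 1 or 2 counts of foxl2a had 228, 262 and 407 counts of foxl2b, so the copies did not fall together there. Genes beside foxl2a were also low in these ovaries, as described below, and this contrast stands with the limit given there.

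**Figure D1:**
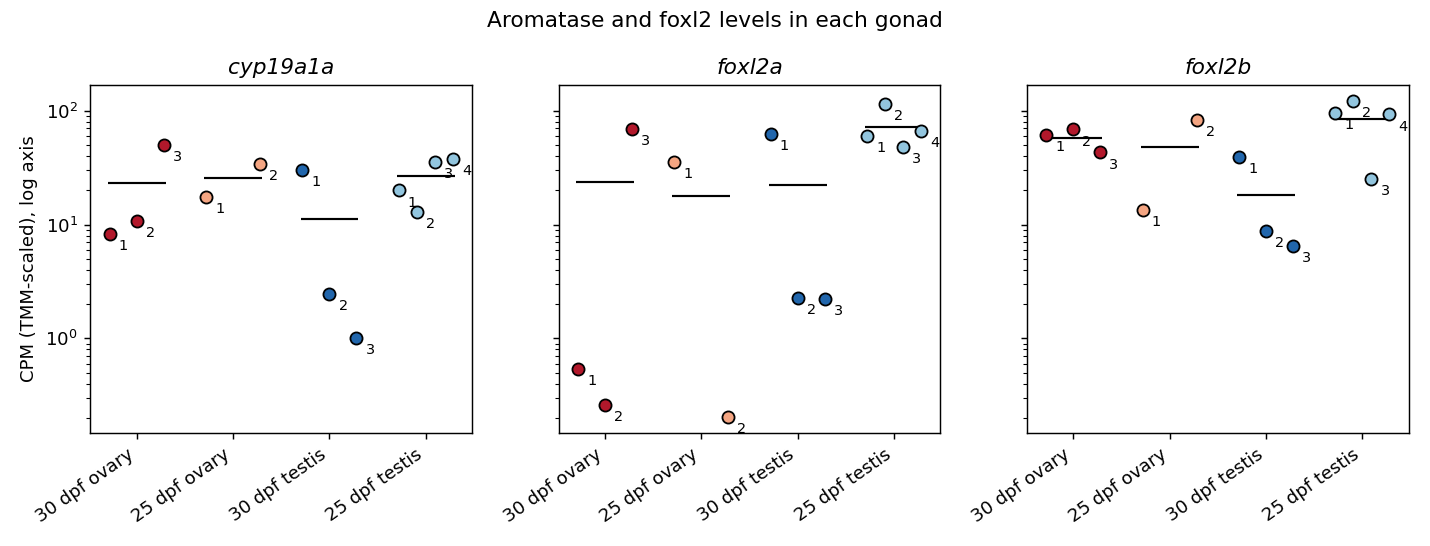
Level of cyp19a1a, foxl2a and foxl2b in each gonad, in TMM-scaled CPM on a log axis, by sex and age. Points are single gonads numbered by replicate and lines are group means; 30 dpf testis replicates 2 and 3 are the lowest testes in all 3 panels, and 3 ovaries lie under 1 CPM for foxl2a.

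Ordered by mean level, cyp19a1a had 26.4 ± 11.95 CPM in 25 dpf testes (SD, n = 4), 25.6 ± 11.6 CPM in 25 dpf ovaries (SD, n = 2), 22.9 ± 23.3 CPM in 30 dpf ovaries (SD, n = 3) and 11.2 ± 16.4 CPM in 30 dpf testes (SD, n = 3). None of these neighbours differed beyond the spread within groups. For foxl2b the order was 84.0 ± 41.3 CPM in 25 dpf testes, 57.7 ± 13.2 CPM in 30 dpf ovaries, 48.2 ± 49.2 CPM in 25 dpf ovaries and 18.2 ± 18.3 CPM in 30 dpf testes. For foxl2a it was 72.3 ± 29.4 CPM in 25 dpf testes, 23.5 ± 40.0 CPM in 30 dpf ovaries, 22.4 ± 34.9 CPM in 30 dpf testes and 17.8 ± 24.9 CPM in 25 dpf ovaries. In 3 of the 4 groups the SD of foxl2a exceeded its mean.

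The comparison of ovary with testis, averaged over both ages, asks whether the genes are female-biased in the juvenile gonad. None of the 3 genes was called by edgeR's quasi-likelihood test at an adjusted p of 0.05, in a table where 43.2% of all genes tested were called. The log2 fold change of cyp19a1a was 0.50 (SE 0.72), a fold of 1.41 with a 95% confidence interval of 0.473 to 4.21 (adjusted p = 0.60). For foxl2a it was -0.97 (SE 1.23), with an interval of -3.67 to 1.73 (adjusted p = 0.54). For foxl2b it was 0.43 (SE 0.55), with an interval of -0.77 to 1.63 (adjusted p = 0.55). The intervals held differences of up to 4-fold in favour of ovaries for cyp19a1a, so these results do not show that the sexes had equal levels. An exact permutation test of each gene, 2-sided with sex permuted within age (300 assignments, smallest possible p = 0.00333), gave p = 0.34 for cyp19a1a, 0.18 for foxl2a and 0.60 for foxl2b.

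At 30 dpf, where 35.2% of all genes were called, foxl2b had the largest log2 fold change of the 3, 1.66 (SE 0.78, 95% interval -0.06 to 3.37), and missed the threshold in edgeR (adjusted p = 0.12). DESeq2 placed the same difference past it, at 1.71 with an adjusted p of 0.047. The 35.2% is the share in edgeR, and that in DESeq2 is not given here. cyp19a1a stood at 1.04 (SE 1.01, edgeR adjusted p = 0.45) and foxl2a at 0.08 (SE 1.65, edgeR adjusted p = 0.97). At 25 dpf, where 13.2% of genes were called, the log2 fold changes were -0.04 for cyp19a1a (SE 1.05, edgeR adjusted p = 0.98), -2.02 for foxl2a (SE 1.91, adjusted p = 0.49) and -0.80 for foxl2b (SE 0.82, adjusted p = 0.53). The change of the sex difference with age, tested as an interaction, was 2.46 on the log2 scale for foxl2b (SE 1.15, edgeR adjusted p = 0.50), a comparison in which 0% of genes were called at the adjusted threshold and 10.1% had an unadjusted p under 0.05. For cyp19a1a the interaction was 1.08 (SE 1.47) and for foxl2a 2.099 (SE 2.47), with edgeR adjusted p values of 0.84 and 0.81.

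Within testes, all 3 genes had lower fitted levels at 30 dpf than at 25 dpf, and none passed the test in edgeR (0.00518% of genes did, and 13% had an unadjusted p under 0.05). Replicates 2 and 3 at 30 dpf lay below all 25 dpf testes for each gene, while replicate 1 lay within their range for all 3. The log2 fold change was -2.20 for foxl2b (SE 0.76, 95% interval -3.87 to -0.53, edgeR adjusted p = 0.28), and DESeq2 gave -2.19 with an adjusted p of 0.049. DESeq2 called 396 genes in this comparison, and the share above is that of edgeR. The values were -1.24 for cyp19a1a (SE 0.97) and -1.69 for foxl2a (SE 1.60), with edgeR adjusted p values of 0.64 and 0.71. Within ovaries the same comparison gave -0.15, 0.41 and 0.26 for cyp19a1a, foxl2a and foxl2b, with adjusted p values of 0.94 to 0.97 in edgeR, and 0% of all genes were called, with 11.5% at an unadjusted p under 0.05. These age comparisons share their gonads with the comparisons of sex.

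**Figure D2:**
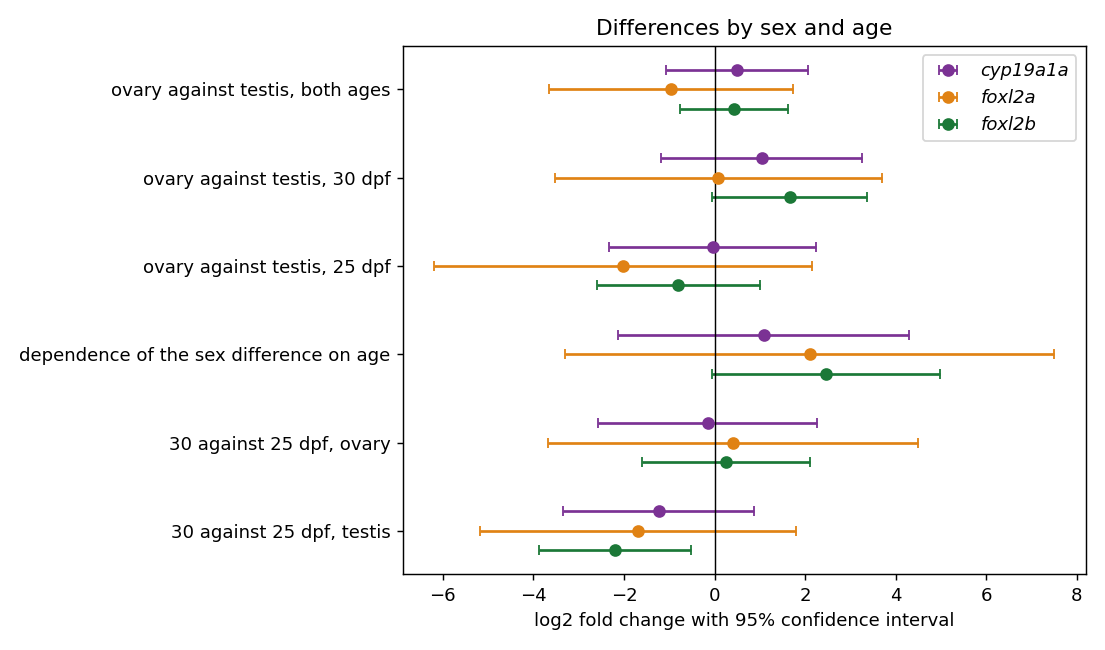
Log2 fold changes of cyp19a1a, foxl2a and foxl2b from edgeR in the 6 comparisons of sex and age, with 95% confidence intervals; positive values are higher in ovaries or at 30 dpf. The interval excludes 0 only for foxl2b in 30 against 25 dpf testes, before adjustment over all genes.

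Single gonads decided several of these values. Testis replicate 1 at 30 dpf had a cyp19a1a level of 30.1 CPM, within the ovary range. Without this gonad, cyp19a1a was called higher in ovaries over both ages (log2 fold change 1.83, edgeR adjusted p = 0.026) and at 30 dpf (3.71, adjusted p = 0.016). So was foxl2b at 30 dpf (2.90, edgeR adjusted p = 0.023). The 30 dpf testes left were replicates 2 and 3, the lowest for all 3 genes. With 1 gonad left out, 4664 to 7185 of 19292 genes were called at 30 dpf. Over both ages, 43.2% were called with all 12 gonads. Without 30 dpf ovary replicate 3, cyp19a1a turned to -0.15 and foxl2a was called lower in ovaries at -3.88 (edgeR adjusted p = 0.042). That call rests on 3 ovaries with 1 or 2 foxl2a counts, in which genes beside foxl2a were low too, as described below. Leaving out 25 dpf ovary replicate 2 turned foxl2b to -0.45 over both ages (adjusted p = 0.59).

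The spread between gonads of the same sex and age was large for these genes. The biological coefficient of variation estimated by edgeR was 1.37 for foxl2a, 0.823 for cyp19a1a and 0.633 for foxl2b, against a median of 0.341 over all genes tested. Among the 1000 genes nearest to each in abundance, this placed foxl2a at the 100th percentile, foxl2b at the 96.9th and cyp19a1a at the 96.1st.

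**Figure D3:**
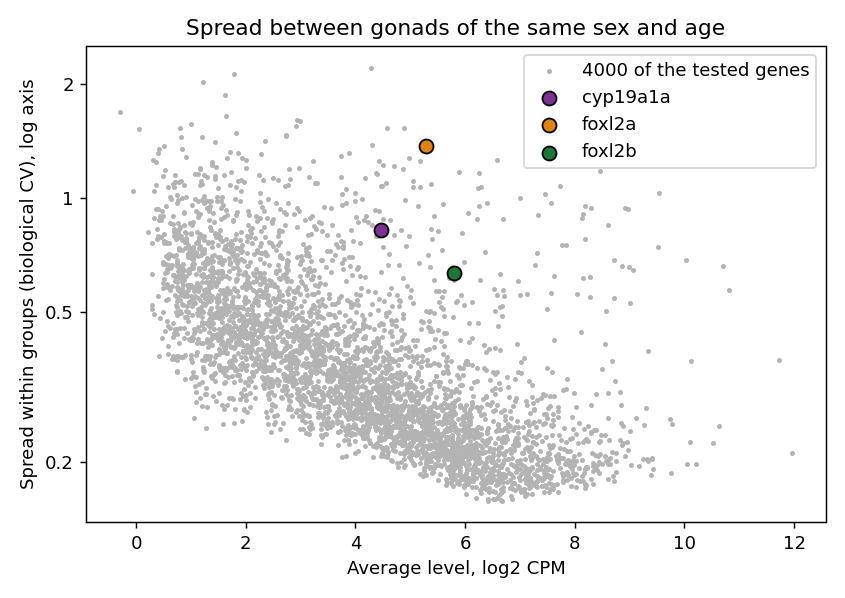
Biological coefficient of variation within groups (log axis) against average level in log2 CPM, for a random 4000 of the 19292 genes tested (grey) and the 3 genes described (coloured). All 3 lie above most genes of like level, foxl2a at 1.37 being the most variable.

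The 2 testes that were low for all 3 genes were also set apart by some testicular genes, chosen after their values were seen. The other male supporting cell and Leydig genes are not given by gonad. In 30 dpf testis replicates 2 and 3, amh (anti-Müllerian hormone, a Sertoli cell signal) was at 529.7 and 1041 CPM, against 9.15 to 36.4 CPM in the other 10 gonads. DMRT1, a transcription factor of testis development, was at 121.0 and 163.5 CPM in these testes and did not exceed 38.9 CPM elsewhere. The same gonads had the highest levels of gsdf, a supporting cell growth factor (3962 and 5187 CPM), of cyp11c1, which makes 11-oxygenated androgens (191.5 and 361.5 CPM), and of STAR, which carries cholesterol into mitochondria (176.2 and 536.9 CPM). Conversely hsd17b1, which reduces oestrone to oestradiol, was at 1.65 and 0.404 CPM in them and at 22.3 CPM or more in every other gonad. The summed genes of oestrogen synthesis, with hsd17b1 and STAR among them, were not low in these 2 testes. Their sum was 795.3 and 1953 CPM there, against 285.3 to 1519 CPM in the other 10 gonads. The other 5 testes thus had cyp19a1a of 12.8 to 37.5 CPM beside amh of at most 36.4 CPM. Summed blood markers were also highest in 30 dpf testis replicates 2 and 3 (970.3 and 506.4 CPM). So were the summed female supporting cell and follicle genes, at 462.3 and 758.7 CPM, against at most 382.2 CPM elsewhere. Because each sample is a whole gonad, fewer supporting cells of a kind and less RNA per cell cannot be told apart.

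**Figure D4:**
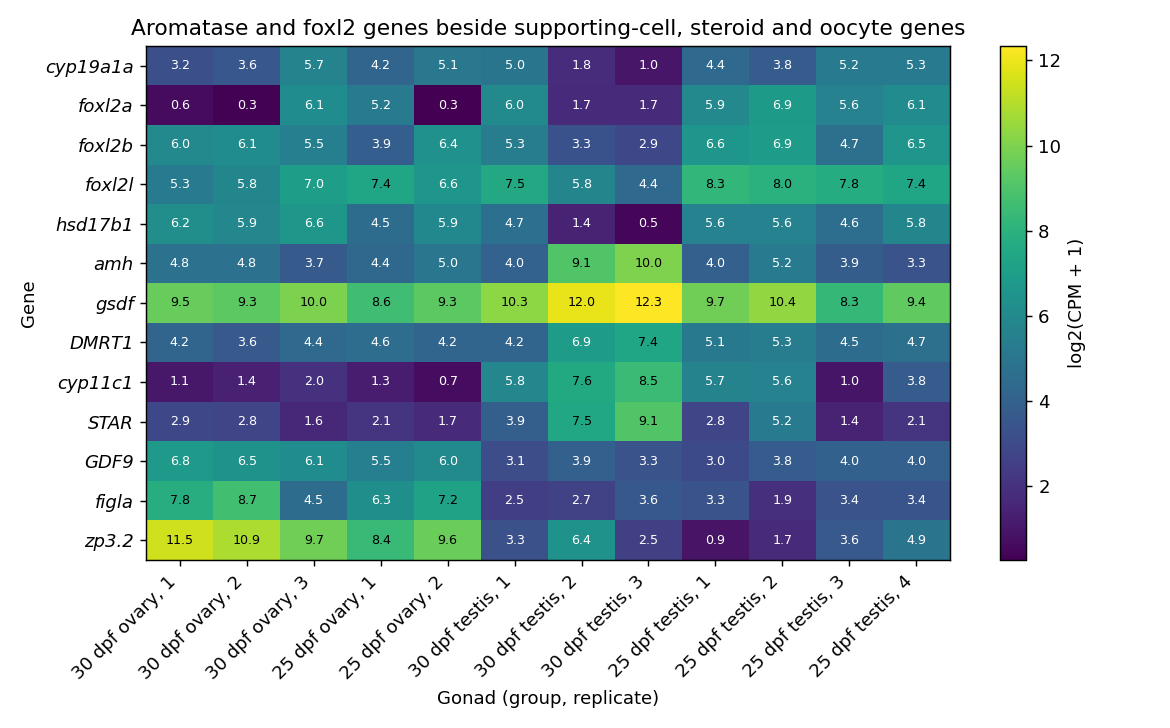
Level of the 3 genes beside foxl2l, steroid and supporting cell genes and the oocyte genes GDF9, figla and zp3.2 in each gonad, as log2(CPM + 1) printed in each cell. Replicates 2 and 3 of the 30 dpf testes combine the highest amh with the lowest cyp19a1a and hsd17b1, whereas GDF9 parts all ovaries from all testes.

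The near absence of foxl2a from 3 ovaries was shared by the genes next to it. In the RefSeq order of protein-coding genes (assembly GRCz12tu, used for order only), ech1, mrps22 and si:ch73-311h14.2 stand on one side of foxl2a and pik3cb on the other, and their values were looked at after those of foxl2a were seen. mrps22, a subunit of the mitochondrial ribosome that all tissues use, had 4, 3 and 468 counts in 30 dpf ovaries and 384 and 3 counts in 25 dpf ovaries, against 338 to 696 counts in the testes. si:ch73-311h14.2 had 0, 0 and 96 counts in 30 dpf ovaries and 86 and 2 counts in 25 dpf ovaries, against 171 to 297 counts in the testes. ech1, an enzyme of fatty acid breakdown, had 14, 16 and 261 counts in 30 dpf ovaries and 135 and 11 counts in 25 dpf ovaries, against 200 to 283 counts in the testes.

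The same 3 ovaries, 30 dpf replicates 1 and 2 and 25 dpf replicate 2, were therefore the low ones for 4 genes that lie together. On the far side, pik3cb, a lipid kinase subunit, had 58, 52 and 94 counts in 30 dpf ovaries and 88 and 93 counts in 25 dpf ovaries, and meis3, beyond ech1, had 97, 127 and 96 counts and 298 and 194 counts. Neither set those 3 ovaries apart. Of 10609 genes tested with a median of at least 10 CPM, 99 (0.933%) had 3 or more gonads under 0.1 of their median, and mrps22, si:ch73-311h14.2 and foxl2a were among them. In the 30 dpf testes in which foxl2a was at 11 counts, mrps22 had 395 and 415 counts and si:ch73-311h14.2 had 179 and 171 counts, so that the low foxl2a of those testes was not shared by its neighbours. Whether the sequence of this locus differed between the fish, or from the genome the reads were mapped to, was not tested. The levels of foxl2a in these 3 ovaries stand with that limit. So do its comparisons by sex and age, its spread within groups and its correlations, which rest partly on them.

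**Figure D5:**
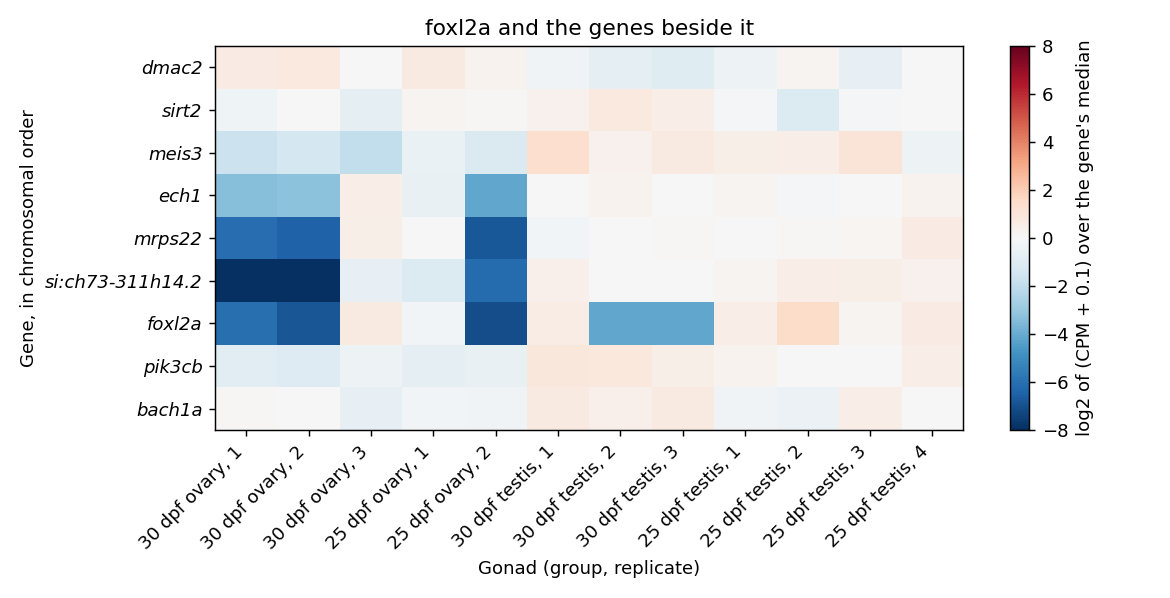
Level of foxl2a and its matched neighbours in chromosomal order in each gonad, as log2 of (CPM + 0.1) over the median of that gene over the 12 gonads (same offset; blue is lower). Genes with a median under 1 CPM were left out; ech1, mrps22, si:ch73-311h14.2 and foxl2a are blue in the same 3 ovaries, and foxl2a alone is blue in 30 dpf testis replicates 2 and 3.

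No run of genes near 0 in these ovaries was seen among the matched genes beside cyp19a1a, and for foxl2b too few genes were matched to look for one. Of 16 protein-coding genes nearest to cyp19a1a, 13 were matched. On one side, tnfaip8l3 had 0, 7 and 17 counts in 30 dpf ovaries and 10 and 6 counts in 25 dpf ovaries, against 14 to 57 counts in testes. Its lowest counts, 0, 7 and 6, were in the ovaries low for foxl2a. The gene next to it, acadl, had 94 to 169 counts in ovaries and 127 to 195 counts in testes. On the other side, gldn and ugt5c3 each had 3 gonads under 0.1 of their median. ugt5c3 had 57, 67 and 6 counts in 30 dpf ovaries and 116 and 50 counts in 25 dpf ovaries. In testes it had 36, 107 and 4 counts at 30 dpf and 80, 134, 105 and 4 counts at 25 dpf. gldn, which overlaps cyp19a1a in that annotation, had 0 to 7 counts, and reads of overlapping genes cannot be told apart here because the library kit does not mark strand. Only 3 of 16 neighbours of foxl2b were matched, of which vapal had 608 to 828 counts in every gonad. They stood 8 places before foxl2b and 3 and 6 places after it, so a run directly beside it could not have been seen. LOC100332698, which overlaps foxl2b in that annotation, was not matched.

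The relation between the 3 genes was compared by their ratio within a gonad. A ratio in 1 gonad is not corrected for gene length, so it does not rank the genes. Gene length cancels, apart from the added 1 CPM, only when the ratio is compared between gonads. The ratio of cyp19a1a to foxl2b, on the log2(CPM + 1) scale, differed by 0.32 between ovaries and testes (exact permutation test, p = 0.71). In the 3 ovaries with 1 or 2 foxl2a counts, ratios with foxl2a are set by the added 1 CPM, so that no difference or test is given for them. In the gonads above that floor, the log2 ratio of foxl2a to foxl2b was 0.68 in 30 dpf ovary replicate 3 and 1.33 in 25 dpf ovary replicate 1, against 0.66, -1.59 and -1.21 in 30 dpf testes and -0.66 to 0.89 in 25 dpf testes. The first of these ovaries lay within the range of the testes and the second above it.

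The third gene of the family, foxl2l, known in zebrafish from germ cells on the way to becoming oocytes, was likewise not called. It had 37.6, 55.8 and 126.4 CPM in 30 dpf ovaries and 167.3 and 96.9 CPM in 25 dpf ovaries, against 185.3, 53.8 and 19.8 CPM in 30 dpf testes and 166.1 to 304.2 CPM in 25 dpf testes. Its log2 fold change over both ages was -0.53 (SE 0.48, edgeR adjusted p = 0.39). The brain aromatase gene cyp19a1b was not analysed here, since its symbol found no match.

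Calls among genes of the pathway around aromatase went in both directions, at shares close to those over all genes. Symbols are those of the name table, which gives the human symbol for some genes. In the chain of oestrogen synthesis, 3 of 11 genes tested were higher in ovaries, 2 were higher in testes and 6 were not called (median log2 fold change 0.06), against backgrounds of 21.9% of all genes called towards ovaries and 21.3% towards testes. hsd3b2, which oxidises steroid precursors, was 5.45 higher in ovaries on the log2 scale (SE 0.68, edgeR adjusted p = 1.42e-04). A CYP11A1 gene (ENSDARG00000002347), for side-chain cleavage of cholesterol, was 5.02 higher (SE 0.55, edgeR adjusted p = 7.35e-05), while STAR was -3.86 (SE 1.03, adjusted p = 0.011). The symbol cyp11a2, also listed for this chain, found no match, and any other gene named CYP11A1 is not given singly. hsd17b1 stood at 1.51 and was not called (SE 0.64, edgeR adjusted p = 0.078).

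Of 10 genes of gonadotropin and steroid signalling tested, 4 were higher in testes and 6 were not called (median -0.70), where 21.3% of all genes were called towards testes. The 4 included both NR5A1 genes, coding for steroidogenic factor 1 (-2.27 and -1.49), and an ESR2 gene (ENSDARG00000034181), coding for an oestrogen receptor beta (-1.56). Among 11 supporting cell and follicle genes of the female list, 2 were higher in ovaries, 4 in testes and 5 were not called (median -1.07), beside 21.9% of all genes towards ovaries and 21.3% towards testes. The members higher in testes included an INHBA gene (ENSDARG00000024759, -4.72) and INHBB (-2.64), which code for subunits of activin and inhibin, and those higher in ovaries included LHX2 (2.61), a LIM homeobox factor. Of 10 male supporting cell and Leydig genes, 6 were higher in testes and 4 were not called (median -1.44, again beside 21.3% of all genes), with cyp11c1 at -5.74, a SOX9 gene (ENSDARG00000003293) at -2.12 and amh at -2.06. The call of amh (edgeR adjusted p = 0.045) held in 2 of 12 fits made with 1 gonad missing.

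Of 12 forkhead genes besides foxl2a and foxl2b, 6 were higher in testes and 6 were not called (median -0.52), beside 21.3% of all genes called towards testes. The largest were foxn3 at -2.03, foxo3b at -1.58 and FOXC1 at -1.43, the call of FOXC1 holding in 5 of 12 fits made with 1 gonad missing. Of 10 germ cell genes, 5 were higher in ovaries and 5 were not called (median 0.53), beside 21.9% of all genes called towards ovaries, among them NANOS3 (2.53), DND1 (1.61) and PIWIL1 (1.03), all with roles in germ cells. The transgene carries a nos3 UTR, so reads from it cannot be told apart from those of NANOS3 in the gene counts.

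Marker genes of other tissues were also measured, against the background of 21.3% of all genes called towards testes and 21.9% towards ovaries. Of 5 leukocyte genes, 3 were higher in testes, as were 3 of 4 endothelial genes, 1 of 3 muscle genes, 1 of 6 liver and pancreas genes and 2 of 2 gut and adipose genes tested, while none of 4 blood genes and 0 of 1 brain and pituitary gene was called. The muscle call, for actc1b (-2.78), held in 4 of 12 fits made with 1 gonad missing and its value was -1.15 without 25 dpf testis replicate 1, and that of VIL1, a gut marker (-1.76), held in 7 of 12. Summed leukocyte markers were at 287.5 to 335.0 CPM in 30 dpf ovaries and 289.5 to 346.5 CPM in 25 dpf ovaries, against 637.9 to 715.5 CPM in 30 dpf testes and 377.0 to 539.0 CPM in 25 dpf testes. Summed blood markers were highest in 30 dpf testis replicates 2 and 3, the testes low for all 3 genes, at 970.3 and 506.4 CPM. They were at 73.3 CPM in replicate 1 of that group and 52.8 to 145.4 CPM in 25 dpf testes. In ovaries they were at 36.6 to 146.3 CPM at 30 dpf and 150.2 to 165.5 CPM at 25 dpf. The part of leukocyte and blood markers in the levels of the 3 genes was not tested. Of 6 reference genes, 3 were higher in ovaries (21.9% of all genes were), led by GAPDH (2.39).

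The genes whose levels followed each of the 3 most closely over the 12 gonads are given as a description, since all points share libraries and a few gonads set the pattern. For cyp19a1a they were THBS3 (Pearson r = 0.918), CPED1 (0.912), foxi1 (0.909), FSTL3 (0.889) and IRX5 (0.887). IRX5, an Iroquois homeobox factor, had 9.68, 9.42 and 18.3 CPM in 30 dpf ovaries and 16.4 and 12.2 CPM in 25 dpf ovaries, against 14.5, 1.24 and 2.02 CPM in 30 dpf testes and 18.5 to 21.3 CPM in 25 dpf testes. It was thus lowest in the same 2 testes as cyp19a1a, which its choice by correlation favours.

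For foxl2a the closest were si:dkey-223g10.3 (r = 0.938), SLC12A7 (0.8999), tmeff1b (0.889), FBLIM1 (0.889) and ENSDARG00000101518 (0.882). SLC12A7, a potassium-chloride cotransporter, was at 23.7, 27.8 and 85.7 CPM in 30 dpf ovaries and 109.7 and 34.5 CPM in 25 dpf ovaries, and at 57.1 to 148.3 CPM in testes. Its 3 lowest gonads were the ovaries that were low for foxl2a, which its choice by correlation favours. The limit given for the foxl2a locus holds for these correlations too. For foxl2b the closest were MEGF11 (r = 0.901), cdh4 (0.896), c5 (0.885), CNTN5 (0.879) and si:ch211-229n2.9 (0.860). cdh4, a cadherin, had 64.0, 57.9 and 83.1 CPM in 30 dpf ovaries and 19.8 and 44.9 CPM in 25 dpf ovaries, against 77.1, 18.3 and 13.5 CPM in 30 dpf testes and 51.5 to 112.3 CPM in 25 dpf testes.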

How the data were processed

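Single juvenile gonads were sequenced after whole transcriptome amplification. The authors deposited raw counts per Ensembl gene in 1 table. According to the methods and processing notes, reads were mapped with HISAT2 2.0.5 to GRCz11, sorted with SAMtools 1.5, freed of duplicates with Picard and counted on exons with HTSeq 0.9.1 in its reverse-stranded mode. The kit named for the libraries does not mark strand, so that genes and their antisense partners cannot be told apart, and removal of duplicates limits the counts of abundant genes. The column names give a size (big or small), an age and a number. Big was read as ovary and small as testis, from the methods' account of juvenile gonads and from the matching number of samples, and the number as the replicate; every column was used.

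Tests were run in R 4.3.3 with edgeR 4.0.16 (filterByExpr, TMM, quasi-likelihood, 1 mean per group over all 12 gonads, Benjamini-Hochberg over 19292 genes, threshold 0.05). Nothing says that gonads of a group came from separate fish, so p-values measure only the spread between these gonads, which may be technical in part. Exact permutation tests used log2(CPM + 1). DESeq2 1.42.0, other scalings and filters, fewer samples, a replicate block and leaving out each gonad were tried. The fit was tested on simulated data.

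The 3 genes and all gene lists were chosen with earlier results of these data known. Named genes were the 3 genes, foxl2l, up to 3 called genes per list with the largest log2 fold change, and the 5 genes most correlated with each. Others needed to describe single gonads, and the chromosomal neighbours (8 on each side), were chosen after their values were seen.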

Additional observations from a re-analysis of the deposited data

Results flagged for a closer look

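Of 22 measures checked in the 4 testes at 25 dpf, the only group large enough, 2 had a sample further from the rest than Dixon's critical value of 0.829 allows, and chance gives about 1 in 20. The summed level of the muscle markers was 18101 CPM in 25 dpf testis replicate 1, against 233.4 to 779 CPM in the other 3. The summed level of the gut and adipose markers was 45.1 CPM in replicate 2, against 9.12 to 15.2 CPM in the others. Summed liver and pancreas markers were at 6607 CPM in replicate 2, against 428.1 to 1681 CPM in the others. Their Dixon value of 0.797 lay just under the critical value. In these 2 testes cyp19a1a, at 20.0 and 12.8 CPM, was below replicates 3 and 4, and the level of foxl2a, at 60.4 and 114.9 CPM, was not set apart by the test. Whether other tissue carried over at dissection bears on these levels was not tested.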

How the results depend on the processing

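At 25 dpf 2552 genes were called, against 3875 with DESeq2, 1196 with only the groups compared and 1305 with a replicate block. The interaction had 0 calls, against 102 with DESeq2 and 1 under each of 3 others (no filter, a minimum of 10 counts per gonad, robust dispersion). Age in ovaries had 0 calls, against 182 with DESeq2. Age in testes had 1 call, against 396 with DESeq2, 7 without a filter, 7 with robust dispersion, 12 under the minimum of 10 counts, and 0 with upper-quartile scaling, with a replicate block or with only the groups compared. Gonads with the same replicate number had a mean correlation of -0.0034 over 15 pairs (lowest -0.24, highest 0.14). These values show no pairing by number, but so few pairs cannot settle whether the numbers mark one.

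Of 342 fits of the 3 genes, 6 were called and 22 turned in direction. DESeq2 called foxl2b at 30 dpf (1.71) and with age in testes (-2.19). foxl2a at 30 dpf turned to -0.035 with upper-quartile scaling, which moved the median of all genes by -0.14, and cyp19a1a at 25 dpf turned to 0.0186 without a filter and to 0.75 with a replicate block. The block changed no call of the 3 genes, and the calls of FOXC1, VIL1, amh, actc1b and actb1 over both ages were lost under it.

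With each gonad left out, calls ranged over 5493 to 8423 for both ages, 92 to 2683 at 25 dpf, 0 to 5 for the interaction, 0 to 3 for age in ovaries and 0 to 70 for age in testes. The log2 fold changes over both ages ranged over -0.15 to 1.83 for cyp19a1a, -4.07 to 0.68 for foxl2a, -0.45 to 1.05 for foxl2b and -0.86 to 0.0842 for foxl2l. At 30 dpf they ranged over -0.25 to 3.71, -5.75 to 3.38 and 1.25 to 2.90 for cyp19a1a, foxl2a and foxl2b, and at 25 dpf over -0.56 to 0.40, -8.26 to -0.99 and -2.60 to 0.0173. The interaction ranged over -0.22 to 3.75 for cyp19a1a, -3.74 to 8.38 for foxl2a and 1.68 to 4.29 for foxl2b. Age in ovaries ranged over -1.45 to 0.42, -5.42 to 6.71 and -0.50 to 2.12 for the 3 genes, and age in testes over -3.91 to -0.69, -4.99 to -1.13 and -3.45 to -1.80. On the log2(CPM + 1) scale, the sex difference ranged over -3.31 to -0.85 for foxl2a and -0.17 to 1.096 for foxl2b, and that of cyp19a1a over foxl2b over -0.16 to 0.73. Without 30 dpf ovary replicate 3, the exact permutation p of foxl2a was 0.00667, the smallest possible with the gonads left. On this scale the 3 ovaries with 1 or 2 foxl2a counts are set by the added 1 CPM. The limit given for that locus holds here too. Fits without a 25 dpf ovary leave 1 in that group, which is assumed to vary like the others. The causes were not tested.

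Of 653 fits of 35 other genes, foxl2l among them, 601 had the same outcome as the main fit and 52 did not. As foxl2l was not called, it had no call to lose, and 1 of its fits turned in direction. With 1 gonad left out, amh was called in 2 of 12 fits, actc1b in 4, FOXC1 in 5, VIL1 in 7, tfa in 9, STAR and TIE1 in 10, and FABP2, kdrl, LHX2 and actb1 in 11.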
